A study of Mus musculus with 67 samples.

Results

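A set of 7 long noncoding RNA genes was followed across single cultured aortic cells: Malat1, Neat1, Meg3, Rian, H19, Gas5 and Snhg1. They were taken by name, as noncoding genes known for high levels in many tissues or for a place in a well described locus. Earlier results of these data were known when they were chosen. Of the 7 genes, 6 had a row among the 39179 genes of the expression table, which holds 4238 rows annotated as long noncoding RNA genes. Snhg1 was not analysed here. The cells were labelled as vascular smooth muscle cells, the contractile cells of the vessel wall, from the descending aorta of male C57Bl6 mice aged 3 to 4 months. All were kept in DMEM with 10% fetal bovine serum and 1% penicillin/streptomycin. Passage 1 was the culture after 5 days, and passage 2 was the culture obtained when those cells were detached with trypsin and replated. Each of the 67 libraries came from 1 cell on a Fluidigm C1 system, 22 cells at passage 1 and 45 at passage 2. No label ties a cell to a mouse or a dish. Each passage was therefore treated as a single sample (n = 1), no p-value was computed, and SDs give the spread between cells. Passage 1 and passage 2 libraries carry different set labels, so passage and library set cannot be told apart.

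A long noncoding RNA is a transcript made by the same polymerase as messenger RNA, often spliced, that encodes no known protein. Malat1 and Neat1 stay in the nucleus: Malat1 gathers in nuclear speckles, bodies rich in splicing factors, and Neat1 is the scaffold of paraspeckles, bodies that hold RNA-binding proteins. Meg3, Rian and H19 are imprinted and are transcribed from the maternal chromosome, Meg3 and Rian from one locus that also holds Dlk1 and Mirg, and H19 beside the growth factor gene Igf2. Gas5 and Snhg1 are host genes, whose introns are processed into small nucleolar RNAs (snoRNAs) and whose spliced exons are short-lived because ribosomes translate them and trigger nonsense-mediated decay. Gas5 was named for its rise in growth-arrested cells, and H19 is known to fall after birth in most tissues.

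The promoters of 3 of these genes are shown because they share letters of the cAMP response element although they lie on different chromosomes. RefSeq start sites matched 5 of the 7 genes, and each window below runs from 250 bases before to 50 bases after a start on build GRCm38.p6, 5′ to 3′ on the gene's strand. Capitals mark the cAMP response element TGACGTCA, its first 6 letters TGACGT, and the TATA letters TATAAA and TATATA, each searched on both strands, with TGACGT lying inside TGACGTCA and TATA matches overlapping one another. The windows are chr19:5802623-5802922 (minus strand) for Malat1, chr12:109540746-109541045 (plus strand) for the upstream start of Meg3, and chr1:161034916-161035215 (plus strand) for the downstream start of Gas5.
Malat1: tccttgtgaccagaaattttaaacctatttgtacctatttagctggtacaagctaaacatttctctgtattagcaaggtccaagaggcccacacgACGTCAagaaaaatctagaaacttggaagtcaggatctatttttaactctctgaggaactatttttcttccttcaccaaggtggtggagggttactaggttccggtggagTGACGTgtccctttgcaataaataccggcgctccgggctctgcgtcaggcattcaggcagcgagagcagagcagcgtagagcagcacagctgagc
Meg3: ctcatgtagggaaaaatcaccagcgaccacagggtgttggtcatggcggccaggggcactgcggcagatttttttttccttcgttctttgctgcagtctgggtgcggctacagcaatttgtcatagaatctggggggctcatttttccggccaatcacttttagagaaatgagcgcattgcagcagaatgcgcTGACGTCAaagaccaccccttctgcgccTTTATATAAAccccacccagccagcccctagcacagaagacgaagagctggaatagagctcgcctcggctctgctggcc
Gas5: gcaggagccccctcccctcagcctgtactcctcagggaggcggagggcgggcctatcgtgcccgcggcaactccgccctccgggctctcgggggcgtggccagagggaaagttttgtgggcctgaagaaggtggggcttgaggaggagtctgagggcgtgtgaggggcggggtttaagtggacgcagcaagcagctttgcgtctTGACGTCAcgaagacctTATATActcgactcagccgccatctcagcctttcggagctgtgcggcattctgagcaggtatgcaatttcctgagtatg
The full TGACGTCA lay 57 bases before the Meg3 start and 46 bases before the Gas5 start, and 1.79% of 32851 mouse promoter windows of this length held it. The Malat1 window held TGACGT 45 bases before the start and its reverse complement 155 bases before it, letters found in 7.51% of windows. TATAAA lay 25 bases before the Meg3 start (13.6% of windows) and TATATA 29 bases before the Gas5 start (5.67%). These are letter matches and no measure of binding. The other start listed for each of Gas5 and Meg3, and those of Rian and Snhg1, held no TGACGTCA.

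Libraries held 817021 to 1561129 reads at passage 1 (median 1.23e+06) and 548419 to 1509589 at passage 2 (median 885194), with 4017 to 10733 and 4163 to 8731 genes detected. Of 10 smooth muscle markers, all had a row and 9 were kept by the filter given below, and their summed level was 173 to 8020 per cell at passage 1 and 1371 to 29019 at passage 2. Endothelial markers summed to 2.83 to 7580 at passage 1 and 0 to 7315 at passage 2, and 5 and 2 cells had at least 3 of the 10 endothelial markers at a value of 10 or more (endothelial marker cells). Fibroblast markers summed to 901 to 6098 at passage 1 and 206 to 7296 at passage 2. Their medians were 2587 and 2067, beside 1509 and 7470 for the smooth muscle markers. The proliferation markers Mki67 or Top2a reached 10 in 16 of 22 and 10 of 45 cells (proliferation marker cells). Values throughout are normalized read counts, deposited by the authors after scaling for library depth. A gene was kept when its mean reached 10 in a passage and at least 25% of that passage's cells had a read, which left 8682 genes, 247 of them long noncoding. The log2 ratio is the log2 of the passage 2 mean plus 1 less the log2 of the passage 1 mean plus 1, a scale on which low genes differ by less than their true ratio. On this scale all 9 kept smooth muscle markers were higher at passage 2, 8 past 2-fold, with a median of 2.27. Of 7 kept endothelial markers 1 was higher and 6 lower, all 6 past 2-fold. Of 7 kept fibroblast markers 3 were higher and 4 lower, 2 of each past 2-fold. The part of marker makeup in the passage differences below was not tested.

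Malat1, Neat1 and Meg3 were more than 2-fold higher by their means at passage 2, H19 was more than 2-fold lower, and Gas5 differed by less. These are 5 of the 6 genes with a row: Rian, whose mean stayed under 10, was not kept. Of all kept genes 14.4% were at least 2-fold higher at passage 2 and 19.4% at least 2-fold lower, and of the kept long noncoding genes 21.1% and 15.8%. The median log2 ratio was -0.11 over all kept genes and 0.17 over the kept long noncoding genes, 136 of which were higher at passage 2. Together the 6 genes took 0.676% of passage 1 reads and 1.39% of passage 2 reads, while all long noncoding rows took 1.97% and 2.78%. Malat1 alone made up 25.1% of long noncoding reads at passage 1 and 37.4% at passage 2. Intervals given below for reads are exact and cover counting error only, and PCR reads without molecular identifiers are not independent molecules.

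**Figure D1:**
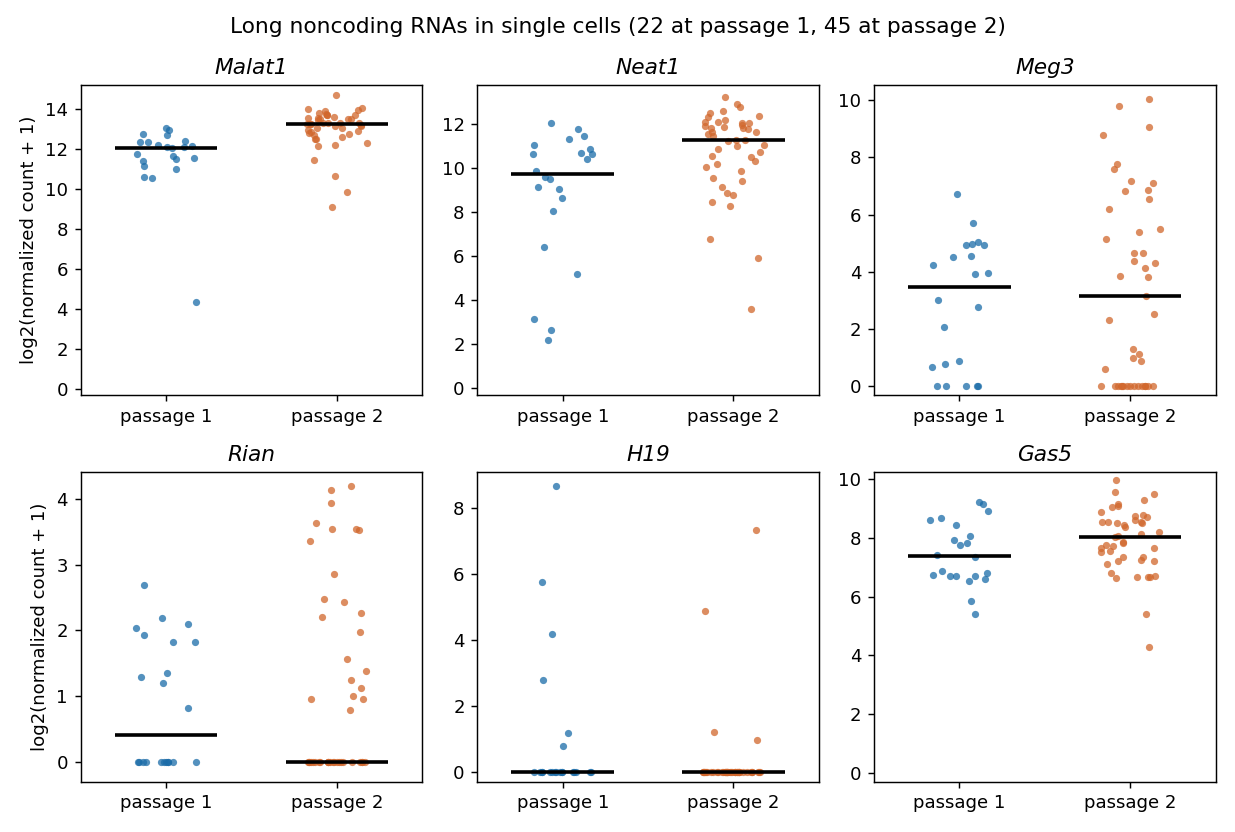
Each point is 1 cell and each bar the median of a passage, with log2(normalized count + 1) on the vertical axis of each panel. The Malat1 median moves from 4305 to 9768 normalized counts between passages, while the Meg3, Rian and H19 panels hold many cells at 0 in both passages.

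Set per kilobase of exon, the mean levels at passage 1 were 593 for Malat1, 60.7 for Gas5, 60.2 for Neat1, 8.94 for H19, 0.974 for Meg3 and 0.0707 for Rian. At passage 2 the same quantity was 1392 for Malat1, 138 for Neat1, 81.6 for Gas5, 5.26 for Meg3, 1.71 for H19 and 0.166 for Rian. Malat1 led in both passages. For the neighbours Gas5 and Neat1, and for H19 and Meg3, the gap at each passage was smaller than the larger of their SDs between cells on this scale. The exon length is the union over all annotated transcripts, so a gene read mostly as a short isoform is understated.

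Malat1 (ENSMUSG00000092341) is a gene of 6983 bases on the minus strand of chr19:5795690-5802672 (GRCm38). Its mean over all cells was the third highest of all 39179 rows and the highest of the long noncoding rows. At passage 1 its lowest value was 19.5, its median 4305 and its highest 8582 normalized counts, with a mean of 4141 ± 2166 (SD, n = 22 cells). At passage 2 the lowest was 554, the median 9768 and the highest 26456, with a mean of 9718 ± 4728 (SD, n = 45 cells). The passages overlapped, but 28 of 45 passage 2 cells lay above every passage 1 cell and 41 lay above the passage 1 median. The log2 ratio was 1.23, or 2.35-fold, and passage 2 held the higher value in 87.2% of pairs of a passage 1 and a passage 2 cell. Summed reads, scaled to each passage's total, gave a ratio of 2.10 (95% interval 2.09 to 2.11). Leaving out any 1 cell kept the log2 ratio between 1.16 and 1.31.

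Malat1 sat just above the 2-fold line under several settings and below it under a few. When passages were matched on reads, with 15 cells in each, the log2 ratio was 0.98, and without the 25% of cells with the fewest genes it was 0.96. Proliferation marker cells, which were fewer at passage 2, had lower mean Malat1 than the others at passage 2 and higher at passage 1, a contrast that was not tested. At passage 2 the 10 cells with a marker had a mean of 5453 (554 to 11914) and the 35 without had 10937 (4658 to 26456). Among those with a marker, cells 30 and 32 (Malat1 11512 and 11914) had summed G2 and M phase genes of 33.8 and 31.7. The passage 2 median of that sum was 42.6, and the other cells with a marker lay above it. At passage 1 the 16 cells with a marker had a mean of 4428 and the 6 without had 3373. Passage 2 cells 13 and 15 and passage 1 cell 21, described below for their few genes, were among the cells with a marker. The part of library quality in this contrast was not tested. Without proliferation marker cells the log2 ratio of Malat1 was 1.70. The part of proliferation in the passage difference was not tested.

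The 3 cells with the lowest Malat1 were also the 3 cells with fewer than 5000 genes detected. Passage 1 cell 21 had 25 Malat1 reads among 817021, 10 Neat1 reads and 4017 genes. Its Actb, a cytoskeletal gene, stood at 13281 against a passage 1 median of 6081, its Vim, an intermediate filament gene, at 3378 against 3476, and its Gas5 at 107 against 166. Son and Srrm2, which encode nuclear speckle scaffold proteins, stood there at 18.7 and 0.781 against medians of 245 and 32.8. Tug1, a further long noncoding RNA, stood there at 520 against 935, so not all such genes were near absent. Passage 2 cells 13 and 15 had 4163 and 4754 genes and Malat1 at 554 and 923 against a median of 9768. Their Neat1 stood at 313 and 60.1 against 2507, and their Son at 0 and 3.85 against 219. The mitochondrial share of reads was 5.99%, 7.12% and 8.47% in these 3 cells, against medians of 5.37% at passage 1 and 5.01% at passage 2. These genes were chosen after their values were seen, and the part of library quality was not tested. Leaving the 3 cells out, a choice also made after seeing the data, left Malat1, Neat1 and Meg3 at least 2-fold higher. Of all kept genes 14.02% passed that line under the same setting.

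Neat1 (ENSMUSG00000092274) lies 22035 bases from Malat1 on the same strand, at chr19:5824708-5845478 (GRCm38), with an exon union of 20771 bases. Its row adds the short and long isoforms, which cannot be separated here. At passage 1 its lowest value was 3.53, its median 857 and its highest 4247, with a mean of 1250 ± 1199 (SD, n = 22 cells). At passage 2 these were 11.01, 2507 and 9555, with a mean of 2867 ± 2204 (SD, n = 45 cells). The overlap was wider than for Malat1: 11 of 45 passage 2 cells lay above every passage 1 cell, and passage 2 was higher in 73.4% of pairs. The log2 ratio was 1.20, or 2.29-fold, with a ratio of summed reads of 2.06 (95% interval 2.03 to 2.08), and 1.12 to 1.37 when any 1 cell was left out. It fell under the 2-fold line at 0.81 in cells matched on reads and at 0.93 without the cells with the fewest genes.

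Neat1 varied more between cells than Malat1 did. Its coefficient of variation (CV, the SD over the mean) was 0.959 at passage 1 and 0.769 at passage 2, against a median of 0.495 and 0.609 over kept genes whose mean was within 1.5 times of it. The CV of Malat1 was 0.523 and 0.486, with few genes at its level to set beside it. Very low Neat1 was found in some endothelial marker cells: passage 1 cells 13 and 14 stood at 5.29 and 3.53, and passage 2 cell 8 at 11.01. The other such cell of passage 2 stood at 932. Low values were not particular to this class: passage 1 cells 21 and 9 stood at 7.81 and 36.1, and passage 2 cells 15 and 33 at 60.1 and 109. The other endothelial marker cells of passage 1 reached 2788, so the marker did not go with a low value in every cell. Without endothelial marker cells the direction of the passage difference in Neat1 was the same.

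**Figure D2:**
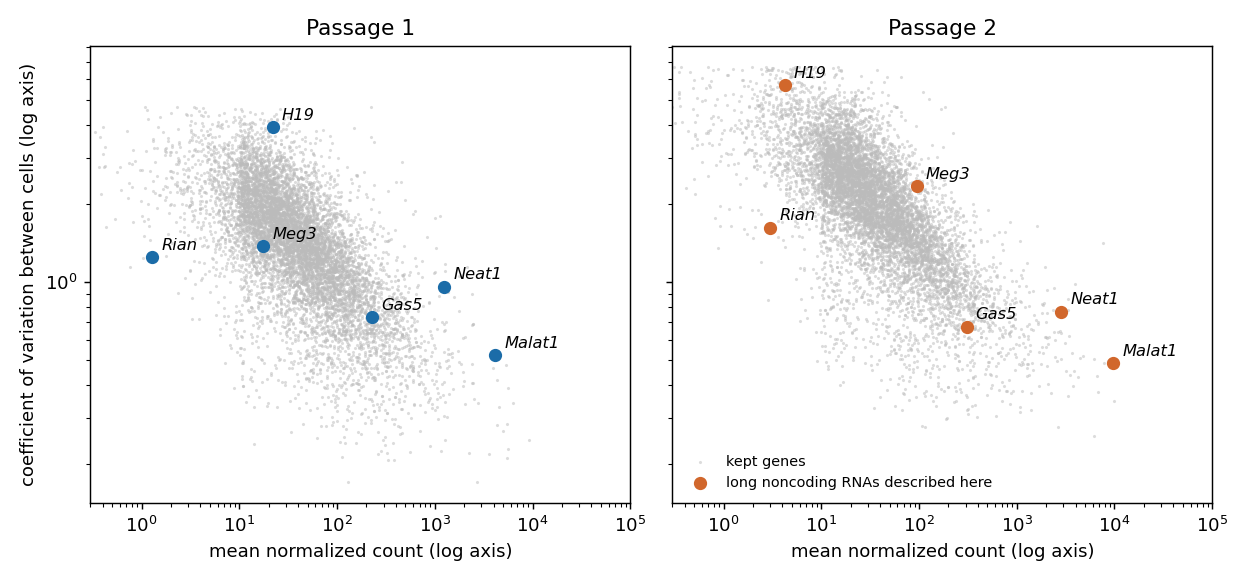
The CV between cells is plotted against the mean normalized count for each passage, both on log axes, with kept genes in grey and the 6 long noncoding RNA genes in colour. Neat1 lies above most genes of its level in both passages, H19 near the top of the plot, and Gas5 within the body of genes of its level.

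Across cells Malat1 and Neat1 varied together. Spearman's rho was 0.73 over the 22 passage 1 cells and 0.53 over the 45 passage 2 cells, 0.49 after thinning each passage 2 cell to 500000 reads, and 0.36 in the 34 passage 2 cells with neither an endothelial nor a proliferation marker. Malat1 also rose with the number of genes detected at passage 1 (rho 0.64) but not at passage 2 (-0.08), and Neat1 likewise (0.64 and 0.17). These cells share their library set and depth range, so the values are descriptions with no test. Malat1 ran against the summed level of 88 ribosomal protein genes, with rho of -0.72 at passage 1 and -0.34 at passage 2. It ran with the summed nuclear speckle and SR protein genes at 0.59 and 0.40, and with the summed paraspeckle protein genes at 0.02 and -0.12. In the 34 passage 2 cells with neither marker Malat1 gave -0.26 with the ribosomal, 0.24 with the speckle and 0.21 with the paraspeckle sum. Neat1 and the paraspeckle sum gave -0.01 and -0.10. With the summed fibroblast markers Malat1 gave 0.63 at passage 1 and 0.14 at passage 2, and Neat1 0.52 and 0.25. With the summed smooth muscle markers Malat1 gave -0.34 and 0.28, and Neat1 -0.51 and -0.05.

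**Figure D3:**
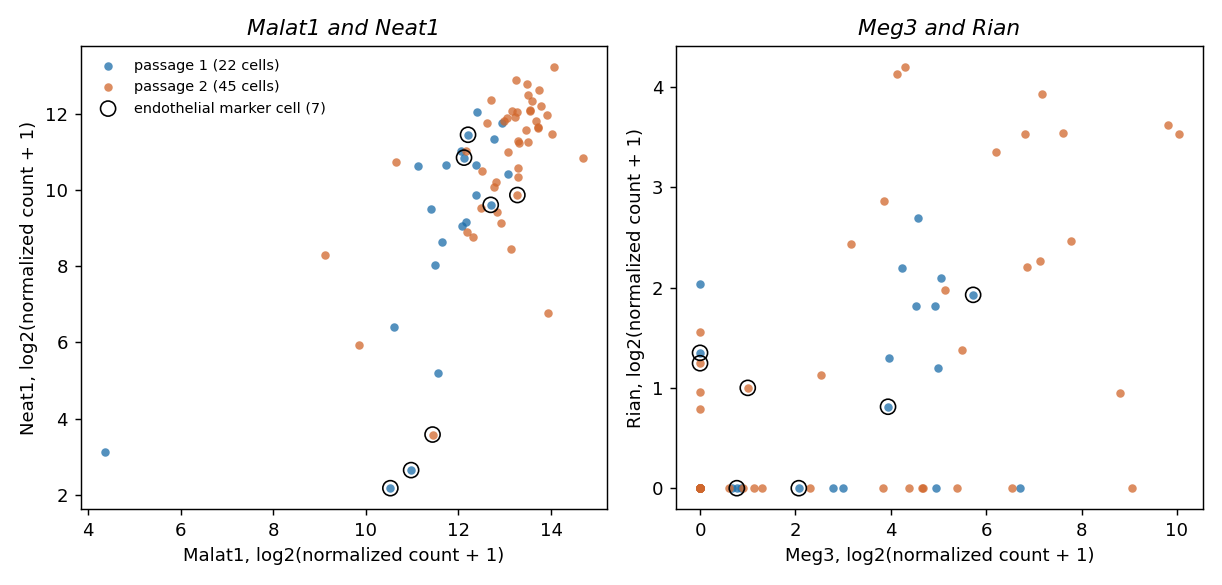
Each point is 1 cell, plotted by log2(normalized count + 1) of Malat1 and Neat1 on the left and of Meg3 and Rian on the right, with the 7 endothelial marker cells ringed. Malat1 and Neat1 rise together, with rho of 0.73 at passage 1 and 0.53 at passage 2, and many cells on the right lie on an axis with no read of one gene.

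Protein genes of the same nuclear bodies were found in both directions. Of 20 kept paraspeckle protein genes, 7 were higher and 13 lower at passage 2, 2 and 4 of them past 2-fold, with a median log2 ratio of -0.39 against -0.11 for all kept genes. Hnrnpk, an RNA-binding protein needed for long Neat1, went from 858 ± 382 to 428 ± 274 (SD over cells), just past 2-fold, and the log2 ratios of Hnrnpa1 and Matr3 were -0.54 and -0.61. Cpsf7, a cleavage factor subunit, stood at -2.30, Pspc1, a core paraspeckle protein, at -1.30, and Taf15 at 2.13 from a passage 1 mean of 1.90. Of 21 kept nuclear speckle and SR protein genes, 11 were higher and 10 lower, 3 and 1 past 2-fold, with a median of 0.12. Srsf2, a splicing factor of speckles, stood at 1.07 (467 ± 293 and 983 ± 992), Srsf9 at 1.06, Clk1, an SR protein kinase, at 0.47, Tra2b at -0.30 and Srsf7 at -1.31. Of 17 kept genes that process or degrade noncoding RNA, 7 were higher and 10 lower, 2 and 4 past 2-fold, with a median of -0.41. Among them Ythdc1, a nuclear reader of methylated adenosine, stood at 1.80, and Mettl3, the enzyme that writes that mark, at -1.24.

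Meg3 (ENSMUSG00000021268), at chr12:109541001-109571726 on the plus strand (GRCm38), gave a large ratio of means that rested on a few cells. At passage 1 its lowest value was 0, its median 10.7 and its highest 104, with a mean of 17.6 ± 24.1 (SD, n = 22 cells). At passage 2 the lowest was 0, the median 7.92 and the highest 1047, with a mean of 95.1 ± 221 (SD, n = 45 cells). Passage 2 cells 38, 14, 18 and 36 stood at 1047, 900, 533 and 445 and held 68.3% of the passage 2 sum. The upper ends of the passages differed: 10 of 45 passage 2 cells lay above every passage 1 cell. Pairs of cells were nearly balanced, with passage 2 higher in 48.8%, lower in 43.6% and tied in 7.58%.

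The log2 ratio of Meg3 was 2.37, or 5.16-fold, and the ratio of summed reads was 4.32 (95% interval 3.95 to 4.74). From medians over cells it was -0.39, the opposite direction, where the median over all kept genes was -0.60. In cells matched on reads it was 0.38, where all kept genes gave -0.21. Leaving out any 1 cell gave 2.00 to 2.73. Of 22 passage 1 cells 17 had a Meg3 read (77.3%, with a 95% interval of 54.6 to 92.2 by the exact method, for the counting of cells only), as had 30 of 45 passage 2 cells (66.7%, 51.05 to 79.999), and after thinning to 500000 reads in 15 and 28 cells. A value of 10 or more was reached by 11 of 22 and 22 of 45 cells. The CV was 1.37 at passage 1 and 2.33 at passage 2, against 1.85 and 1.43 for genes of like mean. A transcript on the other strand, Gm26906, overlaps its 3′ end and held 15 and 51 reads, against 546 and 3694 for Meg3.

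Rian (ENSMUSG00000097451) lies 32.2 kb beyond Meg3 on the same strand, at chr12:109603940-109661716 (GRCm38), and is the host of a snoRNA cluster. Its highest value was 5.46 at passage 1 and 17.4 at passage 2, with means of 1.288 ± 1.602 (SD, n = 22 cells) and 3.02 ± 4.88 (SD, n = 45 cells) from 37 and 127 reads. A read was present in 11 of 22 and 22 of 45 cells, and 0 of 22 and 7 of 45 cells reached 10. The log2 ratio was 0.81, with a ratio of summed reads of 2.19 (95% interval 1.51 to 3.25). From medians over cells the log2 ratio was -0.46, where the median over all kept genes was -0.60. After thinning to 500000 reads, 9 of 22 and 18 of 45 cells had a read. Rian was read in 18 of the 30 passage 2 cells with a Meg3 read, and of the other passage 2 cells 4 had a Rian read and 11 did not. At passage 1 it was read in 9 of 17, and of the others 2 had a Rian read and 3 did not. Spearman's rho between Meg3 and Rian was 0.38 at passage 1 and 0.54 at passage 2, over counts that are mostly 0 to 10 for Rian.

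The rest of the locus was nearly silent. Mirg, a host of microRNAs further along the same strand, had 5 reads at passage 1 and 38 at passage 2, and passage 2 cell 14, which had the second highest Meg3, held 86.1% of its passage 2 sum. Dlk1, Rtl1, Dio3 and Begain had 0 reads in all 67 cells, which allows a share of up to 4.48% of cells with a read, taking 3 cells as the limit that a count of 0 allows. The 18 small RNA rows inside Rian held 0 reads, and the 4 inside Meg3 held 10. Short RNAs of that size are mostly outside what such libraries capture, so their rows say little of the small RNAs.

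H19 (ENSMUSG00000000031), at chr7:142575529-142578143 on the minus strand (GRCm38), is also the precursor of a microRNA and was read in few cells. At passage 1 the lowest and median values were 0 and the highest 406, with a mean of 22.001 ± 86.7 (SD, n = 22 cells). At passage 2 the lowest and median were again 0 and the highest 159, with a mean of 4.22 ± 24.0 (SD, n = 45 cells). Of 22 passage 1 cells 6 had a read (27.3%, with a 95% interval of 10.7 to 50.2), as had 4 of 45 passage 2 cells (8.89%, 2.48 to 21.2), and 3 and 2 cells reached 10. Passage 1 cell 19 held 84.0% of the passage 1 sum and passage 2 cell 24 held 83.9% of the passage 2 sum. The log2 ratio of -2.14 became 0.15 without passage 1 cell 19 and -3.76 without passage 2 cell 24, so its direction rested on passage 1 cell 19. Summed reads were 611 and 161, a scaled ratio of 0.168 (95% interval 0.141 to 0.200), which counts reads and not cells.

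The cells with H19 were of more than one kind. At passage 1, cell 19 (406) had a proliferation marker and also the highest Neat1 of its passage, and cells 11 and 16 (52.6 and 17.1) were endothelial marker cells. At passage 2, cell 24 (159) had Acta2, smooth muscle actin, at 17576 and cell 14 (28.3), a proliferation marker cell, at 8358. Cells 36 and 38, with 1 H19 read each, had Acta2 at 1484 and 15690. The passage 2 median of Acta2 was 2686 and it reached 10 in 45 of 45 cells, so its presence does not set these cells apart. Igf2, its imprinted neighbour, had 0 reads in all 67 cells. Of the genes listed for the H19 and Kcnq1 loci 3 were kept: H19, Cd81, a tetraspanin, at a log2 ratio of 0.85 (450 ± 331 and 812 ± 434), and Nap1l4, a histone chaperone, at -1.01 (54.8 ± 93.0 and 26.8 ± 57.2). Of 10 other kept imprinted genes, 7 were higher and 3 lower at passage 2, 3 and 2 past 2-fold, with a median log2 ratio of 0.70 over all 10. Impact, a regulator of translation, stood at 1.20 (1041 ± 689 and 2401 ± 1537), Gnas, a G protein subunit, at 0.70 (194 ± 95.5 and 316 ± 259) and Zrsr1 at 4.19 from a passage 1 mean of 0.403. Peg3 and Plagl1, zinc finger factors, stood at -2.56 and -2.44, each with a median of 0 in both passages.

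Gas5 (ENSMUSG00000053332), at chr1:161034422-161038539 on the plus strand (GRCm38), was read in every cell, with no cell at 0. At passage 1 its lowest value was 41.3, its median 166 and its highest 595, with a mean of 228 ± 168 (SD, n = 22 cells). At passage 2 these were 18.3, 260 and 1008, with a mean of 307 ± 207 (SD, n = 45 cells). The passages overlapped over nearly the whole range, and 4 of 45 passage 2 cells lay above every passage 1 cell. The log2 ratio was 0.42, or 1.34-fold, with passage 2 higher in 62.1% of pairs and a ratio of summed reads of 1.32 (95% interval 1.29 to 1.36). Without proliferation marker cells it was 0.11, and in cells matched on reads 0.69. The Gas5 CV of 0.734 and 0.673 was set against 0.764 and 0.933 for genes of like mean. Zbtb37 overlaps its 5′ end on the other strand with 82 and 100 reads, against 7135 and 14793 for Gas5.

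Other snoRNA host genes went both ways. Of 11 kept hosts, Gas5 among them, 6 were higher and 5 lower at passage 2, 2 of each past 2-fold, with a median log2 ratio of 0.30. That median changed sign with the setting. From medians over cells it was -0.61, where the median over all kept genes was -0.60. From means of log2 values it was -0.49, where all kept genes gave -0.62. In cells matched on reads it was also -0.49, where all kept genes gave -0.21. Without proliferation marker cells it was -0.23, where all kept genes gave 0.02. Snhg18 stood at 1.25 (26.8 ± 23.6 and 65.1 ± 68.5), Eif4a2, an RNA helicase of translation initiation, at 1.00 (217 ± 164 and 436 ± 487), Nop56, a core snoRNP protein, at -0.96 (94.05 ± 66.7 and 47.8 ± 109), Taf1d at -1.25 and Snhg15 at -1.76. The 9 snoRNA rows inside Gas5 and the 8 inside the annotated Snhg1 gene had 0 reads. Gas5 gave rho of 0.03 at passage 1 and 0.02 at passage 2 with Malat1, and -0.09 and 0.22 with the summed translation genes. Of 11 kept factors of nonsense-mediated decay, 6 were higher and 5 lower, 0 and 1 past 2-fold, with a median of 0.05: Upf1, the central helicase, stood at 0.79 and Upf3b at -1.29. Of 19 kept translation genes whose messages start with a 5′ pyrimidine tract, the kind of start that Gas5 shares, 6 were higher and 13 lower, 0 and 2 past 2-fold, with a median of -0.11. Eef1a1, the elongation factor, stood at -0.04 (2727 ± 464 and 2661 ± 738), Npm1 at -0.63, Eef1g at -1.04 and Nap1l1 at -1.54. G2 and M phase genes, used here to mark dividing cells, were lower at passage 2 in 20 of 20 kept genes, 19 of them past 2-fold, with a median of -3.22.

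**Figure D4:**
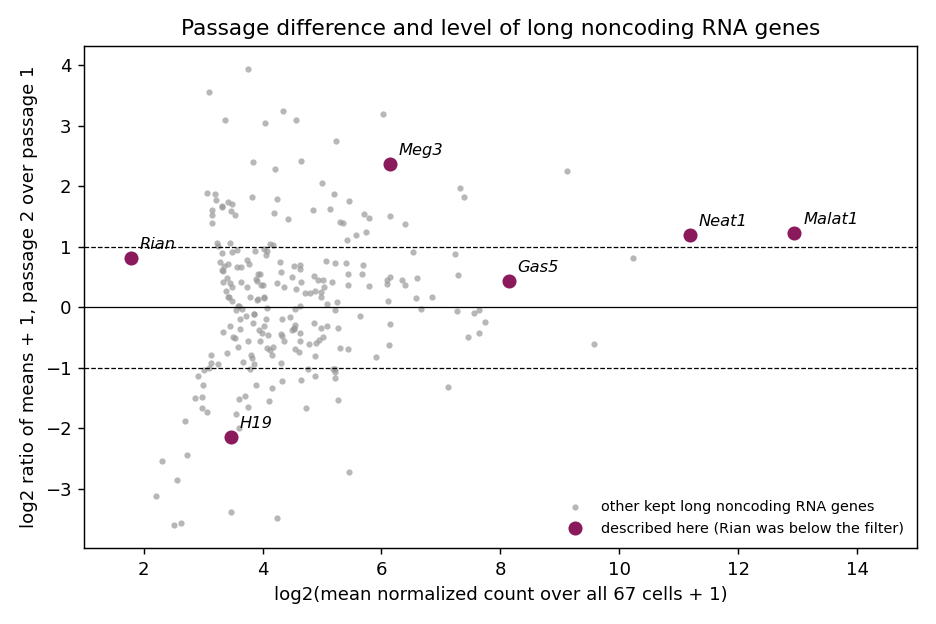
Each point is a long noncoding RNA gene, with log2(mean over 67 cells + 1) on the horizontal axis, the log2 ratio of passage 2 over passage 1 on the vertical axis, and dashed lines at 2-fold. Malat1 (1.23) and Neat1 (1.20) lie at the right end just above the upper dashed line, Meg3 (2.37) higher at a middle level, and H19 (-2.14) low at the left.

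Among other long noncoding genes, 11 listed genes were kept, 5 higher and 6 lower at passage 2, 2 and 1 past 2-fold, with a median log2 ratio of -0.04. Tug1, the fourth most abundant long noncoding row, stood at -0.61 (989 ± 566 and 646 ± 598), the opposite direction to Malat1 and Neat1. Dnm3os, an antisense host of microRNAs inside Dnm3, stood at -0.25 (238 ± 349 and 201 ± 355), Mir22hg at 1.38, 2410006H16Rik at 1.47 and Mir99ahg at -1.15. Xist, the RNA that coats the inactive X chromosome of female cells, had 0 reads at passage 1 and 3 at passage 2.

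For each of the 6 genes, the kept genes whose values ran most like it were found by Spearman's rho over the 45 passage 2 cells. The ranking took in 5883 genes that were read in 50% or more of those cells. Meg3 was most like Cdh11, a cadherin of mesenchymal cells (rho 0.59 at passage 2 and 0.50 at passage 1), Serpinf1, a secreted serpin (0.57 and 0.51), and Fgf7, a fibroblast growth factor (0.55 and 0.41). Rian was most like Tug1 (0.56 and 0.29), Meg3 (0.54 and 0.38) and Gm15965 (0.54 and 0.32). Neat1 was most like Ift81 (0.66 and 0.09), Mylip (0.65 and 0.31) and Spry4 (0.61 and 0.24). Gas5 was most like Hdhd2 (0.52 and -0.11), Rex1bd (0.50 and -0.03) and Med10 (0.46 and -0.05). H19 was most like Iqgap1 (0.49 and -0.27), Siva1 and Anapc2, over 4 cells with a read. The passage 1 values of the genes named for Malat1, Neat1, Meg3 and Rian were positive, though that of Ift81 was only 0.09 against 0.66 at passage 2. Those for Gas5 were small and negative (-0.11 to -0.03), and those for H19 were mixed. The rho values were ranked over many genes, so the highest are high in part by the ranking itself.

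Malat1 was most like Cdc7, a kinase of DNA replication (0.82 at passage 2 and 0.78 at passage 1), Ctcfl, a zinc finger gene known from the testis (0.76 and 0.74), and Racgap1, a gene of cytokinesis (0.61 and 0.52). Compared with Malat1 after this likeness was seen, these 3 genes share a stretch of sequence with the Malat1 transcript, on the opposite strand, in annotated transcripts of GENCODE M21. The alignment with Cdc7 ran over 110 bases at 94.5% identity (bases 580 to 689 of the 6983-base Malat1 transcript), that with Ctcfl over 149 bases at 95.3% (557 to 705) and that with Racgap1 over 51 bases at 100% (636 to 686). Alignments of 30 bases or more were not particular to Malat1. The genes most like Neat1 aligned to it on the same strand, Ift81 over 53 bases at 96.2%, Mylip over 85 at 85.9% and Spry4 over 58 at 81.0%. Those most like Rian aligned to it over 42 (Tug1), 70 (Meg3) and 154 bases (Gm15965) at 82.9% to 83.3%, and those most like Meg3, H19 and Gas5 gave no such alignment. Alignments at any identity were taken here, and long transcripts have more room for them. The share of all gene names with such an alignment was computed for Malat1 only. No link between alignment and likeness can therefore be read from the other genes. The stretch in Malat1 has the letters of the rodent B1 repeat, an abundant short interspersed element. An exact run of 49 bases within it is shown because it lies in all 4 genes, at bases 638 to 686 of Malat1:
Malat1 run: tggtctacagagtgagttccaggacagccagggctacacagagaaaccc
The exact run occurred, on either strand, in 232 other names among 55341 gene names with a transcript (0.419%). At 90% identity or more, 5.27% of names aligned to Malat1 over at least 30 bases, 4.65% over 50 and 3.77% over 100. Counting any identity, 4634 names had an alignment that covered bases 636 to 686. Per 1000 Malat1 reads the median cell had 4.17 Cdc7 reads at passage 1 and 2.74 at passage 2, 0.743 and 1.16 of Ctcfl, and 8.54 and 4.27 of Racgap1. At passage 2 the quartiles for Cdc7 were 2.35 and 3.21, and at passage 1 they were 3.15 and 15.1. In the passage 1 cell with 25 Malat1 reads, Racgap1 had 20 reads, Cdc7 2 and Ctcfl 1. Values of these 3 genes are uncertain where reads could be split between copies, and the part of the shared stretch in their likeness to Malat1 was not tested.

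**Figure D5:**
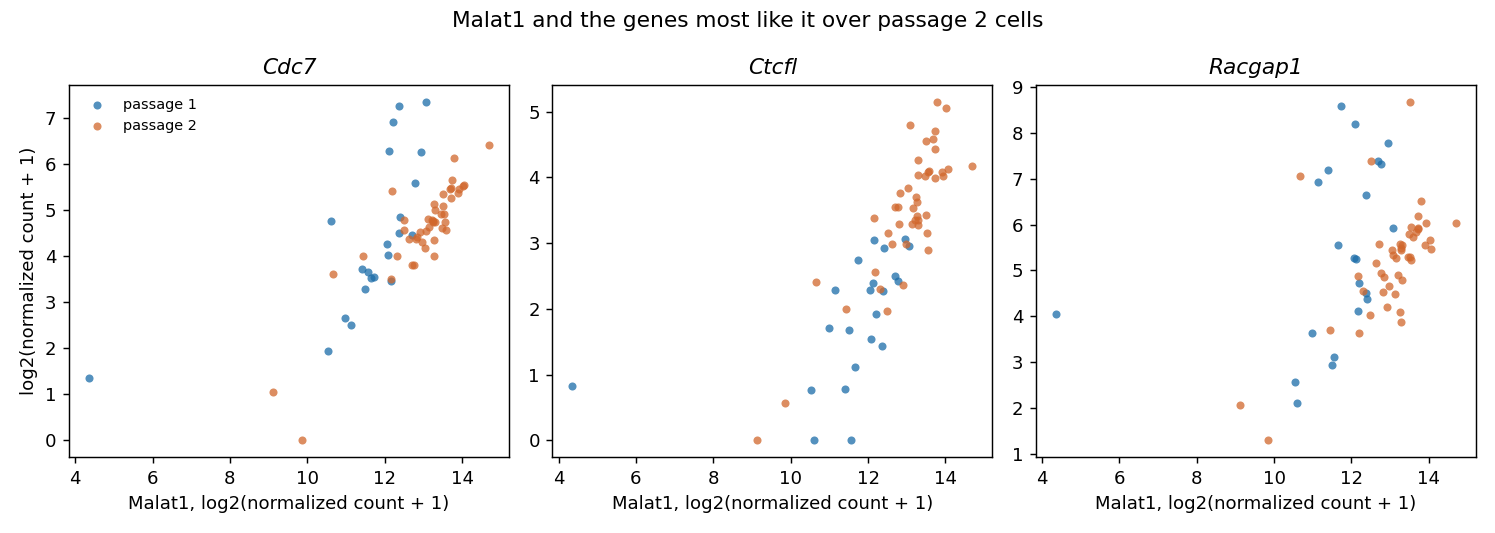
Each point is 1 cell, with log2(normalized count + 1) of Malat1 on the horizontal axis and of Cdc7, Ctcfl or Racgap1 on the vertical axis. Passage 2 cells lie along a line for Cdc7 (rho 0.82), while a set of passage 1 cells lies above it.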

How the data were processed

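Single-cell RNA-seq of 67 cells was analysed from 1 table. The deposited values are a signal per gene and cell, counts normalized by the authors: per the submitters' processing notes the tools were DESeq, HTSeq, SAMtools and BWA and the build GRCm38, with no versions. In each cell all values were whole multiples of 1 step within 0.001 (100% of 509576 values above 0), and dividing by the step gave whole reads, 548419 to 1561129 per cell. A count test on them was not run, because each passage counts as 1 sample. The unit is per gene, and HTSeq's strand and multimapping settings are not given in the sources used here.

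Means, ratios, shares and rank correlations were computed with Python 3.11.15, numpy 2.4.6, pandas 2.3.3 and scipy 1.17.1, TMM factors with edgeR 4.0.16 in R 4.3.3, and alignments with BLAST+ 2.17.0. The calculation was run on simulated data as a check of the code. That simulation gave every gene the same spread setting. It therefore says nothing of genes with most of their sum in a few cells, such as Meg3 and H19. Gene models came from GENCODE M21 (GRCm38) and promoters from RefSeq (GRCm38.p6). Intervals are exact at 95%. The genes and lists were chosen with earlier results of these data known. Named genes of a list are the 3 highest by mean and those with the highest and lowest 2 log2 ratios, less a few that are counted without their values, and for each gene the 3 most like it. Beside these, Actb, Vim, Son, Srrm2, Acta2, Mirg and the overlapping genes were named after their values were seen. Alternatives were other pseudocounts, scalings, averages, filters and sets of cells, and leaving out each cell. No row of Snhg1 was used.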

Additional observations from a re-analysis of the deposited data

How the results depend on the processing

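Malat1, Neat1 and Gas5 kept their direction under all 12 alternatives run for them, over log2 ratios of 0.96 to 1.70, 0.81 to 1.93 and 0.11 to 0.69. Medians over cells gave -0.39 for Meg3, -0.46 for Rian and 0 for H19, where the median over all kept genes moved to -0.60. H19 stood at -4.06 once the 25% of cells with fewest genes were dropped and at -4.87 in cells matched on reads, and between -3.76 and 0.15 when 1 cell was left out, the last without passage 1 cell 19. The count of genes at least 2-fold higher, 3, became 1 once those low-gene cells were dropped and 0 in cells matched on reads. Of all kept genes 14.6% and 15.8% passed under these settings. From medians and from means of log2 values the count was 2, where 7.39% and 6.66% of kept genes passed. It stayed at 3 when any 1 cell was left out. The count at least 2-fold lower, 1, became 0 from medians, from means of log2 values and without proliferation marker cells, where 39.8%, 35.1% and 20.4% of all kept genes passed. It was also 0 without passage 1 cell 19 (range 0 to 1). Under the stricter filter it was 0 because H19 was no longer kept, which is no change in its ratio. The median of the genes of the H19 and Kcnq1 loci was 0 from medians, 0.14 without proliferation marker cells and -0.08 under the stricter filter, which left H19 out. Medians of 7 other lists also changed sign or reached 0 under some settings. They ran from 0 to 0.82 for other imprinted genes, -0.61 to 0.42 for snoRNA hosts, -0.30 to 0.60 for nuclear speckle genes, -0.63 to 0.18 for decay factors, -0.40 to 0.07 for translation genes and -1.18 to 0.28 for processing genes, and from -0.29 to 0.27 for other long noncoding genes. The cause of these changes was not tested. No paired analysis was possible because replicate numbers only name the cells in accession order. After thinning to 500000 reads H19 was read in 5 of 22 and 4 of 45 cells.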
